A study of Mus musculus with 9 samples.

Results

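The genes of the interferon response and of antigen presentation were followed in mouse hepatic stellate cells given exosomes of pancreatic tumour cells. The genes were chosen by symbol. They were the interferon receptors, the Janus kinases, STAT and IRF transcription factors, RNA sensors, interferon-induced families (Ifi, Ifit, Ifitm, Isg, Gbp, Oas), the H2 genes with B2m, the peptide transporters and immunoproteasome subunits, and the Parp genes. The rule found 78 of the 11051 genes in the expression table. Of these, 68 reached at least 1 FPKM in at least 3 of the 9 libraries and were tested. None of the 68 passed this filter through the libraries of 1 group alone. The other 10 (Xaf1, Ifit1bl1, Usp18, Ifitm5, Ifitm1, Irf5, Oas1a, Stat5a, Ifi27l2b and Psmb9) are given as levels. Psmb8, Nlrc5, Irf7, Ifih1 and Rsad2, which would complete these classes, were not analysed here.

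Interferons are secreted proteins that warn cells of viral infection. Type I interferons bind the Ifnar1 and Ifnar2 receptor and interferon gamma binds Ifngr1 and Ifngr2. Both receptors act through Janus kinases, which phosphorylate STAT proteins. STAT complexes that hold Irf9 bind a DNA motif called ISRE (interferon-stimulated response element), and STAT pairs bind the GAS motif (gamma-activated sequence). The induced genes include antiviral effectors and the parts of the MHC class I pathway, in which the proteasome cuts proteins, Tap1 and Tap2 carry the peptides into the endoplasmic reticulum, and an H2 heavy chain held by B2m shows them at the cell surface. Hepatic stellate cells are liver pericytes that become collagen-producing myofibroblasts on activation. They are known to respond to interferons and to carry MHC class I.

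RNA was sequenced from primary stellate cells of C57BL/6 mouse livers in 3 groups of 3 libraries. The KPC group received exosomes, small vesicles that cells shed, of KPC cells, a mouse pancreatic adenocarcinoma line. The Panc02 group received exosomes of Panc02 cells, another mouse pancreatic adenocarcinoma line. The control group received exosomes shed by primary duct epithelial cells of the mouse pancreas, so every library comes from cells given exosomes and none from untreated cells. All cells were kept in medium with serum depleted of exosomes. Each tumour is represented by 1 line, and the labels give no exosome dose and no exposure time. Whether the libraries of a group stem from separate cultures or mice is not stated in them. P-values here reflect the spread among these libraries, which may be technical.

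The values are FPKM, fragments scaled to transcript length and library size, so levels can be set side by side between genes but the depth behind them is unknown. The libraries numbered 1 stood apart from the rest. Genes encoded in mitochondria held 33.6% of the FPKM in KPC library 1, 28.3% in Panc02 library 1 and 26.4% in control library 1, and 11.2% to 15.9% in the 6 libraries numbered 2 or 3. Results are therefore also given for those 6 libraries alone. Among them the share still differed by group, at 15.9% and 14.9% in control libraries 2 and 3 and 11.2% to 13.6% in the tumour exosome libraries. Its part in the results of these 6 libraries was not tested. Stellate and myofibroblast markers (6 of 8 on the list were measured) summed to 699 to 1120 FPKM in KPC, 853 to 1170 FPKM in Panc02 and 561 to 693 FPKM in control libraries, and Lrat and Des were not analysed here. Of 9 macrophage markers 4 were measured, and their sum was 8.73 to 14.9 FPKM in KPC, 9.34 to 13 FPKM in Panc02 and 10.3 to 17 FPKM in control libraries. Most of each sum was Cd14, at 4.64 to 10.9 FPKM, and Cd68, at 2.11 to 4.6 FPKM. Csf1r had 0.617 to 1.52 FPKM and Lyz2 at most 0.909 FPKM. Adgre1, Clec4f, Ptprc, Tyrobp and Fcgr1 were not analysed here. Duct epithelial markers (5 of 5) summed to 23 to 25.5 FPKM in KPC, 25.8 to 36.7 FPKM in Panc02 and 21.5 to 23.9 FPKM in control libraries, and most of each sum was Sox9, at 19.3 to 23.3 FPKM in every library. The keratin Krt8 had 1.7 to 1.93 FPKM in KPC, 2.14 to 6.54 FPKM in Panc02 and 0.127 to 1.27 FPKM in control libraries, so every tumour exosome library lay above every control library. Epcam and Krt19 each reached 3.89 FPKM in Panc02 library 1 and at most 1.01 FPKM elsewhere, and were listed at 0 in 4 and 3 of the 9 libraries. Of 5 sinusoidal endothelial markers only Cdh5 was measured, at 1.26 to 1.33 FPKM in KPC, 1.33 to 1.5 FPKM in Panc02 and 0.984 to 1.27 FPKM in control libraries. Markers of lymphocytes, dendritic cells and hepatocytes were not analysed here. In whole-culture RNA, fewer cells of a type and less RNA per cell cannot be told apart, and the part of other cells in the results was not tested.

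Promoters were matched by symbol in the RefSeq table of GRCm38.p6, which holds 250 bases before and 50 bases after each gene's start. A match was found for 67 of the 78 genes. The ISRE core GAAANNGAAA, sought on both strands, was found for 23 of the 67 genes (34.3%) and for 1079 of the 27025 genes of the whole table (3.99%). The GAS motif TTCNNNGAA, which reads the same on both strands, was found for 17 of the 67 (25.4%) and for 2582 of all (9.55%). The 2 searches were separate, so matches could overlap. The windows of 5 genes, taken only from those with an ISRE core match, are printed 5′ to 3′ on the gene's strand, with the matches in capitals. Windows without a match, such as those of Ifit2 and Ifitm6, are not printed. Ifi207 (chr1:173741760-173742059, minus strand), Ifitm3 (chr7:141010695-141010994, minus strand) and Ifit3 (chr19:34583279-34583578, plus strand) are shown as genes read lower with tumour exosomes. Isg15 (chr4:156200769-156201068, minus strand) is shown as a gene with the same motif that read higher in most pairs of libraries. B2m (chr2:122147437-122147736, plus strand) is shown as one with the motif that read lower on average, with groups that overlapped.
Ifi207: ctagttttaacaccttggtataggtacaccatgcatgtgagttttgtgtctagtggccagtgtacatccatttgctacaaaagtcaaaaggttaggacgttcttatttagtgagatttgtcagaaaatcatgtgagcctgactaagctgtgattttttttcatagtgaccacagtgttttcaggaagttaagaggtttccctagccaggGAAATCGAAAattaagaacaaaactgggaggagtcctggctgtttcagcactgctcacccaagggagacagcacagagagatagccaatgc
Ifitm3: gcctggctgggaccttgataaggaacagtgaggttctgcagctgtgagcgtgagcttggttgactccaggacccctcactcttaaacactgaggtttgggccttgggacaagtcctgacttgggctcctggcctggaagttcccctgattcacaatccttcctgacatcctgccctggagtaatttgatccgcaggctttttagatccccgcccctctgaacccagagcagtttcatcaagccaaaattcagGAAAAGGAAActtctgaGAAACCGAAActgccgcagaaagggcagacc
Ifit3: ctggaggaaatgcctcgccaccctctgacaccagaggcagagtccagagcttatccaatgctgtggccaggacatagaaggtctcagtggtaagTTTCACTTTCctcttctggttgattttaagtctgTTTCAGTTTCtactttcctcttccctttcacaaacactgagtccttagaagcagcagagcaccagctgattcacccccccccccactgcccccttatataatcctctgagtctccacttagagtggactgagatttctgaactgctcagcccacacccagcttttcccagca
Isg15: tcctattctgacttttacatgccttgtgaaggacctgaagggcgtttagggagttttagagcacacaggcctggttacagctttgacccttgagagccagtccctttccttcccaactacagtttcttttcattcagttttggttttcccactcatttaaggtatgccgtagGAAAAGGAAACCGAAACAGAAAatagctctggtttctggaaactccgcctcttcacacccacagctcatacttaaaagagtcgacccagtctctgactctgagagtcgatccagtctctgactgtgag
B2m: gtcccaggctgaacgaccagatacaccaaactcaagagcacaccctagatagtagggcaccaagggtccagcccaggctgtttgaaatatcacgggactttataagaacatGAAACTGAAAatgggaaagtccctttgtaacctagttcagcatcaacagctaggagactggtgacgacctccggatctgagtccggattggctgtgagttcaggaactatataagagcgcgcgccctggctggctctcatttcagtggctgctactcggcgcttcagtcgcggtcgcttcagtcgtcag
The Ifi207 and B2m windows each held 1 match, the Ifitm3 and Ifit3 windows 2 each, and the Isg15 window 3 that overlap in 1 run. The Ifit3 matches lie on the other strand and so read TTTC in the printed direction. A match is a run of letters and not a measured binding site.

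Most of the 78 genes were expressed at a low to moderate level. By their mean over the 9 libraries, 4 were above 100 FPKM (B2m, Ifitm2, Ifitm3 and H2-D1), 15 lay between 10 and 100 FPKM, 47 between 1 and 10 FPKM and 12 below 1 FPKM. B2m, the light chain of every MHC class I molecule and the marker of the set, was the highest at 453 FPKM. Together the 78 genes held 0.513% to 0.541% of all FPKM in KPC, 0.532% to 0.605% in Panc02 and 0.546% to 0.669% in control libraries. KPC libraries lay just below all control libraries in this share, and Panc02 libraries overlapped them. The share leaves out Gm45717, a read-through gene outside the set whose exons overlap Ifitm2. Gm45717 had 259 and 250 FPKM in KPC libraries 2 and 3 and 208 FPKM in control library 1, so the gap depends on how reads were assigned. The share was lowest in library 1 of every group, where the mitochondrial share was highest.

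**Figure D1:**
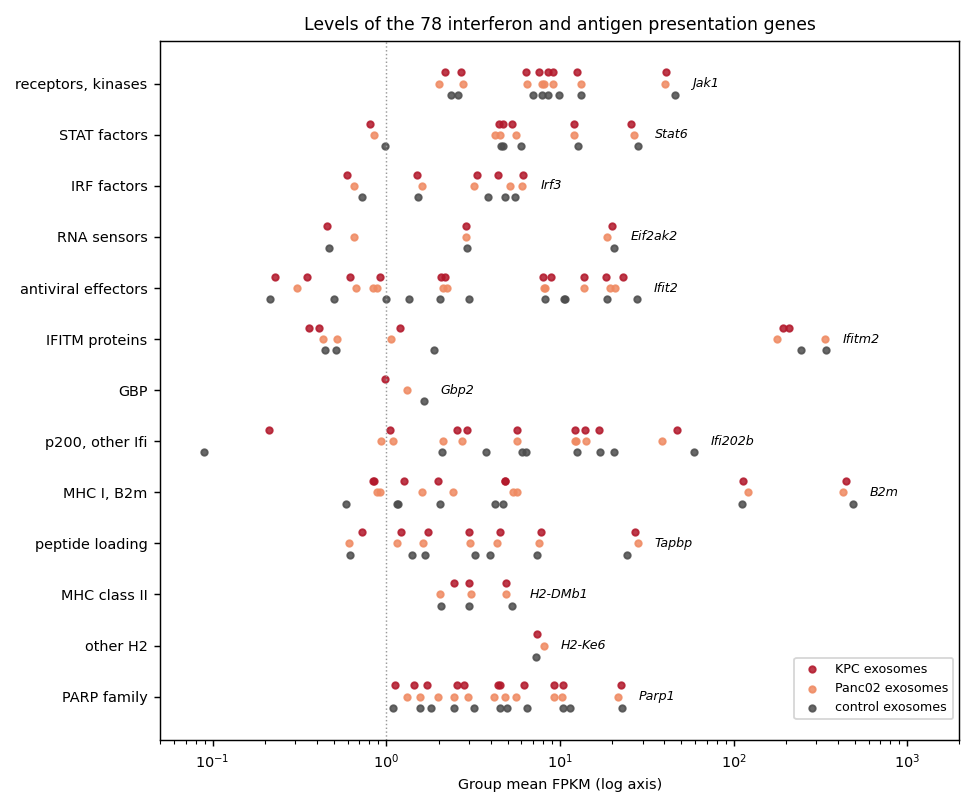
Group mean FPKM (log axis) of the 78 genes by role, 1 point per gene and group, with the highest gene of each role named; the dotted line marks 1 FPKM, the level of the filter. KPC, Panc02 and control means lie close together for most genes, and B2m, Ifitm2, Ifitm3 and H2-D1 stand above 100 FPKM.

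For both tumour groups against control, the log2 fold change was below 0 for 8 of 8 tested p200 and other Ifi genes, 3 of 3 Ifitm genes and 5 of 8 Ifit, Isg and other antiviral effectors. It was below 0 for 6 of 8 receptors and kinases, 5 of 5 STAT factors, 2 of 4 IRF factors, 3 of 8 MHC class I genes and 2 of 6 genes of peptide supply. The counts were 8 of 11 for the Parp family, 2 of 2 for RNA sensors, 2 of 3 for MHC class II, 1 of 1 for guanylate-binding proteins and 0 of 1 for other genes of the H2 region. These counts were not tested against each other. In the model without a replicate term no gene of the 78 passed a limma adjusted p of 0.05 in any contrast. That was 0 of 68 for KPC against control, where 0.328% of all tested genes passed, 0 of 68 for Panc02 against control (1.01% of all genes), 0 of 68 for both tumour groups against control (1.26%) and 0 of 68 for Panc02 against KPC (0%). At an unadjusted p under 0.05 the counts were 8, 11, 14 and 1 of 68, against 6.54%, 9.60%, 10.2% and 0.829% of all genes. The replicate numbers met the limit set for pairing, but libraries numbered 2 and 3 also correlated across numbers. Meeting the limit therefore does not show that libraries were paired. A model with the number as a block was fitted beside the first. In that model Ifi207 and Ifi27l2a fell with KPC exosomes, which is 2 of 68 genes against 1.68% of all genes. Ifi207, Ifi27l2a, Ifitm3 and Ifit2 fell with Panc02 exosomes, 4 of 68 against 4.24%. Those 4 and Ifitm6 fell with both tumour groups against control, 5 of 68 against 4.55%. None of the 68 rose in that model, in which 1.09%, 2.39% and 2.72% of all genes fell. The shares of 2.94%, 5.88% and 7.35% lie above these and above the shares of all calls. They rest on 2, 4 and 5 genes, so the number of calls is taken as no result about the set. In the 6 libraries numbered 2 and 3 alone, 66 genes of the set could be tested. Then 2 passed for KPC (Psmb10 higher, Ifitm2 lower) against 1.93% of all genes, 2 for Panc02 (Ifit2 and Ifit3 lower) against 4.74%, 7 for both (Psmb10 and Isg15 higher, Ifi203, Ifi204, Ifit2, Ifit3 and Ifitm2 lower) against 7.37%, and 1 for Panc02 against KPC (Ifitm2 higher) against 0.0778%.

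The direction was uneven across the set. The log2 fold change was below 0 for 51 of 68 genes with KPC exosomes, 46 with Panc02 exosomes and 47 with both, where 52.7%, 50.4% and 51.7% of all tested genes lay below 0. The median log2 fold change of the 68 was -0.08 in each of the 3 contrasts, against medians of all genes of -0.01 for KPC, 0.00 for Panc02 and -0.01 for both. With the libraries numbered 2 and 3 alone, 41, 39 and 39 of 66 genes lay below 0, against 45.4%, 47.4% and 46.5% of all genes. Their median was -0.05 in each contrast, against 0.02, 0.01 and 0.02 over all genes. Every KPC library lay below every control library for 12 of 68 genes (17.6%), which held for 7.31% of all genes. For Panc02 the count was 18 (26.5% against 9.30%), and for both tumour groups 12 (17.6% against 5.62%). No gene of the 68 lay above all control libraries in any of these, where 4.14%, 6.79% and 2.94% of all genes did. All 3 pairs were lower for 22 of 68 genes with KPC, 26 with Panc02 and, over the 6 pairs, 19 with both, against 19.2%, 21.6% and 13.6% of all genes, and higher for 1, 6 and 0, against 13.1%, 19.2% and 8.96%. The 12 genes below control in both tumour groups were Ifi207, Ifi203, Ifitm3, Ifitm6, Ifit3, Ifit3b, Isg20, Gbp2, Ifnar2, Jak1, Parp3 and Parp8. Panc02 added Ifi202b, Ifi204, Ifi211, Ifit2, Tapbpl and Parp2. The comparisons share the control libraries.

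**Figure D2:**
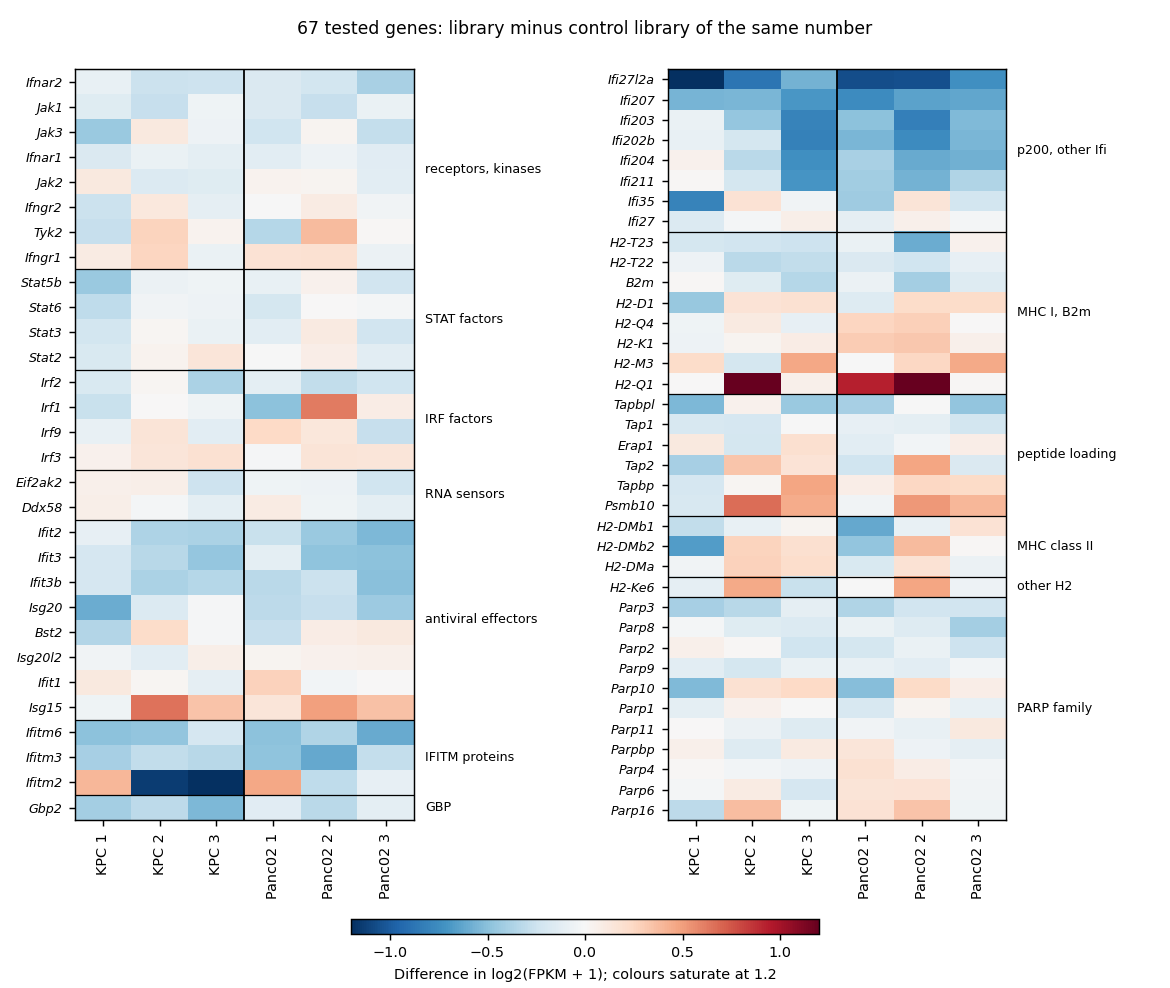
Difference in log2(FPKM + 1) between each tumour exosome library and the control library of the same number, for 67 of the 68 tested genes ordered by role; blue is lower and red higher than control, and colours saturate at 1.2. Ifi207, Ifi203, Ifi202b, Ifi27l2a, Ifit2, Ifit3, Ifit3b, Ifitm3, Ifitm6 and Gbp2 are blue in all 6 columns, while Ifit1 and most MHC class I and peptide loading rows change sign between columns, with H2-T22 and Tap1 lower in all 6.

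The p200 genes, a cluster on chromosome 1 (GRCm38, 173723427 to 173982744), encode DNA-binding and inflammasome-regulating proteins. All 5 measured members had a log2 fold change below 0 in both comparisons with control, between -0.60 and -0.30 with KPC and between -0.67 and -0.45 with Panc02 exosomes. Ifi207 (ENSMUSG00000073490.11, minus strand, 173723427 to 173741747) had 1.53, 0.962 and 0.657 FPKM in KPC libraries 1 to 3, 1.2, 0.836 and 0.746 FPKM in Panc02 libraries, and 2.71, 1.87 and 1.69 FPKM in control libraries. Neither tumour group overlapped control, and the library numbered 1 was the highest in every group. With the replicate block its log2 fold change was -0.60 for KPC (limma adjusted p = 0.0212), -0.67 for Panc02 (adjusted p = 0.00712) and -0.64 for both (adjusted p = 0.00451). Without the block the standard error was 0.19 in the first 2 of these contrasts and 0.16 in the third, and the limma adjusted p was 0.427, 0.197 and 0.139. With a pseudocount of 0.1 in place of 1 the value for both was -1.03. In the 6 libraries numbered 2 and 3 Ifi207 was below the filter and has no test.

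Ifi203, another p200 gene, had 3.50, 2.46 and 1.72 FPKM in KPC libraries, 2.38, 1.71 and 2.29 FPKM in Panc02 libraries and 3.75, 3.79 and 3.75 FPKM in control libraries. The control libraries hardly differed, and KPC library 1 lay just below them. Its log2 fold change for both tumour groups was -0.53 (SE 0.15, limma adjusted p = 0.206; 0.0711 with the block). It was -0.66 in the 6 libraries numbered 2 and 3 (adjusted p = 0.0324) and -0.62 without KPC library 1 (adjusted p = 0.0465). Its exons overlap those of Mndal on the same strand, and reads of the 2 genes cannot be told apart there. With the FPKM of both summed, an alternative chosen after seeing the data, the log2 fold change was -0.63 (adjusted p = 0.11).

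Ifi202b, an inhibitor of the Aim2 inflammasome, was the most abundant p200 gene. Its libraries had 61.8, 48.6 and 31.5 FPKM with KPC, 44.7, 32.9 and 37.8 FPKM with Panc02 and 65.8, 56.3 and 55.9 FPKM with control exosomes. Panc02 libraries lay below all control libraries, and KPC libraries overlapped them. C57BL/6J mice are known to carry a deletion at the start of this gene that silences it, and the source of these reads in cells labelled C57BL/6 was not tested. Ifi204, which senses DNA in macrophages, had 23.5, 15.5 and 11.2 FPKM in KPC, 17, 12.6 and 12.7 FPKM in Panc02 and 22.6, 19.6 and 19.3 FPKM in control libraries. Ifi211 had 17.2, 14.5 and 10.1 FPKM in KPC, 12.5, 11.1 and 13.1 FPKM in Panc02 and 17.1, 16.9 and 17.1 FPKM in control libraries. For Ifi204 and Ifi211 KPC library 1 matched or exceeded its control partner, and libraries 2 and 3 lay below theirs. The log2 fold changes of both tumour groups were -0.49 (SE 0.20) for Ifi202b, -0.43 (SE 0.21) for Ifi204 and -0.38 (SE 0.15) for Ifi211, with limma adjusted p of 0.418, 0.573 and 0.40. With libraries numbered 2 and 3 alone they were -0.58, -0.56 and -0.46, and Ifi204 passed (adjusted p = 0.039). The p200 genes resemble each other in sequence, so the authors' counting could divide reads between them.

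Ifi27l2a (ENSMUSG00000079017.3, chromosome 12, 103442167 to 103443680), a small interferon-induced protein also called Isg12b, had the largest log2 fold change of the 68 in all 3 contrasts with control. It had 0.776, 3.08 and 4.87 FPKM in KPC libraries, 1.37, 2.60 and 4.22 FPKM in Panc02 libraries and 3.98, 6.46 and 7.70 FPKM in control libraries. Each tumour exosome library lay below the control library of its number, but the groups overlapped because library 1 was the lowest in every group. With the block the log2 fold change was -0.98 for KPC (limma adjusted p = 0.0384), -0.95 for Panc02 (adjusted p = 0.0222) and -0.96 for both (adjusted p = 0.0117). Without it the SE was 0.46 for KPC and Panc02, and the limma adjusted p was 0.83 and 0.601. In the libraries numbered 2 and 3 alone the value for both was -0.81 (adjusted p = 0.0537). Its neighbour Ifi27, a mitochondrial protein of the same family, averaged 12.3 ± 4.09 FPKM in KPC, 12.4 ± 3.81 FPKM in Panc02 and 12.5 ± 3.28 FPKM in control libraries (SD, n = 3 each). Ifi27l2b, also next to it, had 2.90 FPKM in Panc02 library 1 and at most 0.395 FPKM in any other, and was listed at 0 in 4 of 9 libraries. Ifi35, an unrelated leucine zipper protein, had 2.57 to 7.73 FPKM in KPC, 3.63 to 6.73 FPKM in Panc02 and 5.22 to 8 FPKM in control libraries.

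**Figure D3:**
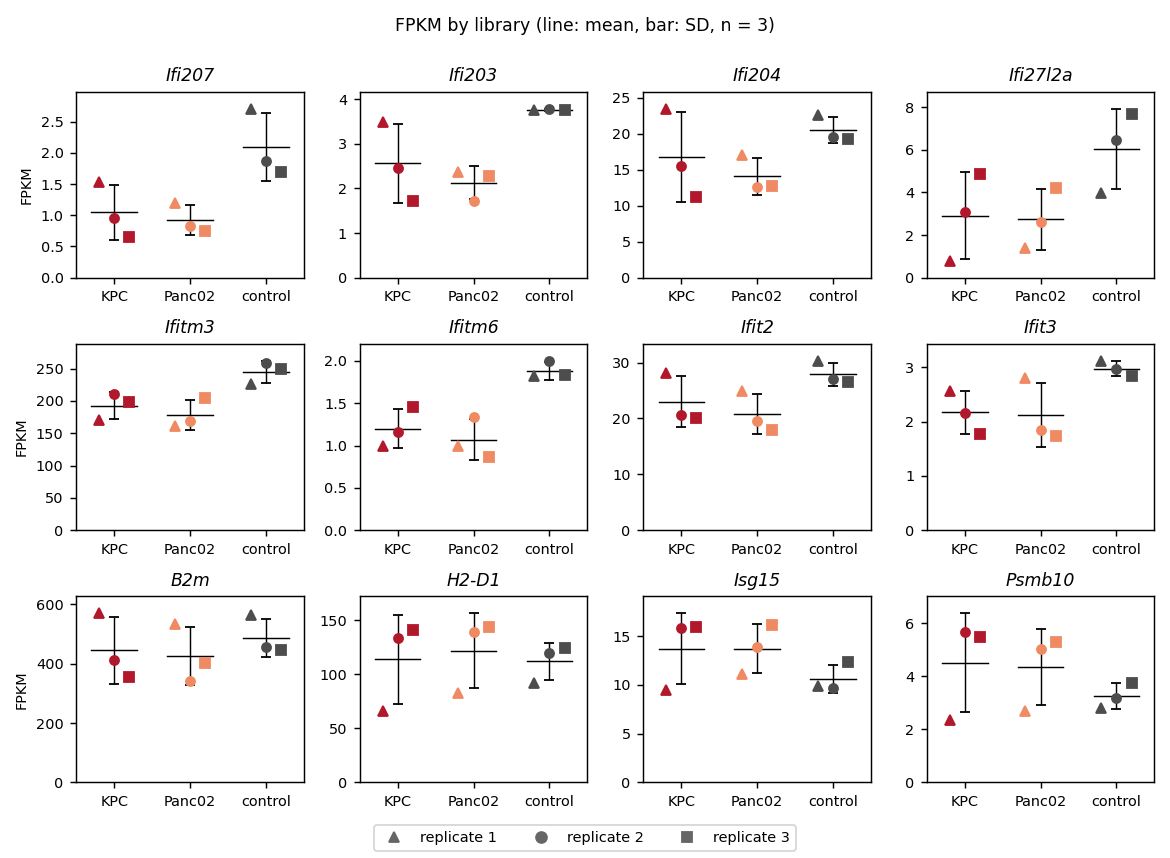
FPKM of 12 genes in each library, with KPC, Panc02 and control exosomes from left to right; triangles, circles and squares are the libraries numbered 1, 2 and 3, lines are means and bars are SD (n = 3). Ifi207, Ifi203, Ifitm3, Ifitm6 and Ifit3 show no overlap between tumour and control exosome libraries, whereas B2m and H2-D1 differ more between library 1 and the others than between groups.

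The Ifit genes, a cluster on chromosome 19 (34550694 to 34650009), encode proteins that bind viral RNA and block its translation. Ifit2 had 28.2, 20.7 and 20.1 FPKM in KPC libraries, 24.9, 19.6 and 18.0 FPKM in Panc02 libraries and 30.3, 27.0 and 26.6 FPKM in control libraries. All Panc02 libraries were below control, and KPC library 1 lay among the control libraries. With the block its log2 fold change was -0.42 for Panc02 (limma adjusted p = 0.0297) and -0.35 for both (adjusted p = 0.032), and -0.28 for KPC (adjusted p = 0.16). Without it the Panc02 value had SE 0.16 and a limma adjusted p of 0.423. Ifit2 also passed in the 6 libraries numbered 2 and 3, at -0.49 for Panc02 (adjusted p = 0.0218) and -0.43 for both (adjusted p = 0.0161).

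Ifit3 had 2.57, 2.16 and 1.78 FPKM in KPC libraries, 2.80, 1.84 and 1.73 FPKM in Panc02 libraries and 3.12, 2.98 and 2.84 FPKM in control libraries. Its near-identical neighbour Ifit3b had 1.2, 0.699 and 0.843 FPKM in KPC, 1.03, 0.850 and 0.645 FPKM in Panc02 and 1.54, 1.21 and 1.33 FPKM in control libraries. Both genes were below control in every tumour exosome library, and how the authors' counting divided reads between them is not known. For both tumour groups the log2 fold change was -0.35 (SE 0.13) for Ifit3 and -0.34 (SE 0.11) for Ifit3b, and the limma adjusted p was 0.357 and 0.279, or 0.0682 and 0.057 with the block. Ifit3 passed in the libraries numbered 2 and 3 alone at -0.44 (adjusted p = 0.0346). Ifit1, the cap-binding member at the other end of the cluster, was level across groups, at 2.07 ± 0.214 FPKM in KPC, 2.23 ± 0.265 FPKM in Panc02 and 2.05 ± 0.118 FPKM in control libraries (SD, n = 3 each). Ifit1bl1 was below the filter, with 2.16 FPKM in Panc02 library 1 and at most 0.371 FPKM in any other.

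Among the other antiviral effectors, Isg15 read in the other direction. Isg15, an interferon-induced ubiquitin-like protein that enzymes attach to other proteins, had 9.52, 15.8 and 15.9 FPKM in KPC libraries, 11.1, 13.9 and 16.1 FPKM in Panc02 libraries and 9.89, 9.65 and 12.3 FPKM in control libraries. Libraries 2 and 3 of both tumour groups lay above all control libraries, and KPC library 1 lay below all of them. The log2 fold change for both was 0.32 (SE 0.18, limma adjusted p = 0.70; 0.144 with the block), and 0.46 in the libraries numbered 2 and 3 alone (adjusted p = 0.0487). Isg20, an exoribonuclease, had 6.75, 9.99 and 9.90 FPKM in KPC libraries, 8.38, 9.15 and 7.12 FPKM in Panc02 libraries and 10.7, 11.3 and 9.99 FPKM in control libraries. Its highest KPC and lowest control values are equal at this rounding, and its log2 fold change for both was -0.30 (SE 0.13, limma adjusted p = 0.507). Bst2 (tetherin, which holds budding virus at the membrane) averaged 8.02 ± 1.71 FPKM in KPC, 8.15 ± 1.69 FPKM in Panc02 and 8.21 ± 0.647 FPKM in control libraries (SD, n = 3 each). Isg20l2, an exonuclease of ribosomal RNA processing in human cells, averaged 18.4, 19.5 and 18.8 FPKM in the KPC, Panc02 and control groups. Usp18, which removes Isg15 from proteins, stayed between 0.129 and 0.610 FPKM in all libraries, and Xaf1 averaged 0.621 ± 0.0342 FPKM in KPC, 0.666 ± 0.0931 FPKM in Panc02 and 1.00 ± 0.111 FPKM in control libraries (SD, n = 3 each). Every tumour exosome library lay below every control library for Xaf1, a gene of apoptosis that was too low to be tested.

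The Ifitm genes, a cluster on chromosome 7 (140948958 to 141017924), encode membrane proteins that hinder virus entry. Ifitm3 (ENSMUSG00000025492.6, minus strand, 141009586 to 141010770) had 171, 211 and 198 FPKM in KPC libraries, 161, 169 and 205 FPKM in Panc02 libraries and 226, 259 and 250 FPKM in control libraries. Ifitm6 had 1.00, 1.16 and 1.45 FPKM in KPC, 1.00, 1.34 and 0.862 FPKM in Panc02 and 1.82, 2.00 and 1.83 FPKM in control libraries. No tumour exosome library reached the lowest control library for either gene. With the block Ifitm3 had a log2 fold change of -0.46 for Panc02 (limma adjusted p = 0.0296) and -0.40 for both (adjusted p = 0.0271), and -0.34 for KPC (adjusted p = 0.124). Without it the limma adjusted p was 0.209 for Panc02 (SE 0.13) and 0.186 for both (SE 0.11). In the libraries numbered 2 and 3 alone the Ifitm3 value for both was -0.38 (adjusted p = 0.0526). Ifitm6 passed with the block for both tumour groups at -0.44 (limma adjusted p = 0.0456), against 0.102 without it (SE 0.10), and its value was -0.41 in the libraries numbered 2 and 3 alone (adjusted p = 0.0821) and -0.70 with a pseudocount of 0.1. Ifitm1 and Ifitm5 averaged under 1 FPKM and were not tested.

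Ifitm2, the most abundant gene of the set after B2m, gave values that depend on how reads were assigned. It had 293, 178 and 159 FPKM in KPC libraries, 307, 319 and 379 FPKM in Panc02 libraries and 222, 394 and 406 FPKM in control libraries. Gm45717, a read-through gene whose exons overlap it on the same strand, had 0.928, 259 and 250 FPKM in KPC libraries, 0, 0.506 and 0.639 FPKM in Panc02 libraries and 208, 1.62 and 0.562 FPKM in control libraries. The read-through gene was thus high in the 3 libraries with the lowest Ifitm2 (KPC 2, KPC 3 and control 1) and below 2 FPKM in the other 6. Summed, the 2 genes had 294, 436 and 409 FPKM in KPC libraries, 307, 319 and 379 FPKM in Panc02 libraries and 430, 395 and 406 FPKM in control libraries. The Ifitm2 log2 fold change of KPC against control was -0.70 (SE 0.29, limma adjusted p = 0.704) and -0.13 for the sum. Panc02 against KPC was 0.72 for Ifitm2 alone and -0.17 for the sum. In the 6 libraries numbered 2 and 3 Ifitm2 alone passed for KPC against control at -1.24 (adjusted p = 0.00614) and for Panc02 against KPC at 1.04 (adjusted p = 0.0308), where 0.0778% of all genes passed. Both KPC libraries in that fit are ones with high Gm45717. The sum was chosen after seeing the data.

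The only guanylate-binding protein measured was Gbp2, a GTPase that attacks membranes around intracellular pathogens. It had 0.978, 1.23 and 0.752 FPKM in KPC libraries, 1.40, 1.21 and 1.35 FPKM in Panc02 libraries and 1.63, 1.77 and 1.55 FPKM in control libraries. Both tumour groups were below control, with log2 fold changes of -0.42 for KPC and -0.19 for Panc02 (SE 0.11 each, limma adjusted p = 0.255 and 0.721).

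Receptors and kinases were expressed in every library and differed little between groups. Jak1, the kinase shared by both receptors, was the highest at 39.8, 40.3 and 42.8 FPKM in KPC libraries, 39.1, 40.4 and 41.9 FPKM in Panc02 libraries and 44.1, 49.2 and 44.3 FPKM in control libraries. Ifnar2, the signalling chain of the type I receptor, had 8.96, 8.20 and 8.45 FPKM in KPC libraries, 8.40, 8.42 and 7.57 FPKM in Panc02 libraries and 9.57, 9.97 and 10.2 FPKM in control libraries. Both genes lay below control in all 6 tumour exosome libraries, by a small amount. The log2 fold change for both tumour groups was -0.17 (SE 0.07) for Jak1 and -0.23 (SE 0.07) for Ifnar2, with limma adjusted p of 0.492 and 0.278. The other receptor chains had overlapping groups. Ifnar1 averaged 6.35 ± 0.474 FPKM in KPC, 6.43 ± 0.433 FPKM in Panc02 and 7 ± 0.262 FPKM in control libraries (SD, n = 3 each). Ifngr1 averaged 9.11, 9.09 and 8.50 FPKM and Ifngr2 12.5, 13.3 and 13.2 FPKM in the KPC, Panc02 and control groups. Tyk2, the second kinase of the type I receptor, averaged 2.71 ± 1.04 FPKM in KPC, 2.75 ± 1.21 FPKM in Panc02 and 2.59 ± 0.531 FPKM in control libraries (SD, n = 3 each). Jak2 averaged 7.61, 7.86 and 7.92 FPKM and Jak3 2.17, 2.02 and 2.37 FPKM in the same groups.

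STAT and IRF factors gave no call in any model. Stat2, a factor of the type I pathway, averaged 4.69 ± 1.30 FPKM in KPC, 4.55 ± 0.793 FPKM in Panc02 and 4.60 ± 0.703 FPKM in control libraries, and Irf9, the DNA-binding subunit of the complex that binds ISRE, averaged 1.5 ± 0.277, 1.60 ± 0.303 and 1.53 ± 0.182 FPKM in the same order (SD, n = 3 each). The groups overlapped for both subunits. Stat6, the factor of interleukin-4 signalling, was the most abundant STAT at 25.8, 26.9 and 28.2 FPKM, and Stat3, the factor of interleukin-6 signalling, averaged 12, 12 and 12.8 FPKM in the KPC, Panc02 and control groups. Stat5b, a factor of growth hormone signalling, averaged 5.29 ± 1.95, 5.6 ± 1.36 and 6.01 ± 1.29 FPKM in the same groups (SD, n = 3 each). Among IRF factors, Irf3, which starts interferon transcription, averaged 6.17 ± 1.12, 6.03 ± 1.23 and 5.54 ± 0.752 FPKM in the KPC, Panc02 and control groups (SD, n = 3 each). Irf1, a driver of MHC class I genes, averaged 4.41 ± 1.29, 5.17 ± 1.59 and 4.85 ± 1.44 FPKM. Irf2, which opposes Irf1, averaged 3.33 ± 0.805, 3.21 ± 0.773 and 3.87 ± 0.588 FPKM, and its log2 fold change for both was -0.20 (SE 0.16, limma adjusted p = 0.887).

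RNA sensors were level too. Eif2ak2 (PKR, which halts translation on binding double-stranded RNA) averaged 20.0 ± 3.86 FPKM in KPC, 18.7 ± 3.02 FPKM in Panc02 and 20.4 ± 2.64 FPKM in control libraries, and Ddx58 (RIG-I) averaged 2.87 ± 0.174, 2.87 ± 0.210 and 2.93 ± 0.102 FPKM in the same groups (SD, n = 3 each). Oas1a, an oligoadenylate synthetase, was below the filter at 0.179 to 0.864 FPKM.

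MHC class I genes did not separate the groups, and none of the 8 lay apart from control in any comparison. B2m (ENSMUSG00000060802.8, chromosome 2, 122147686 to 122153083) had 570.0, 412 and 354 FPKM in KPC libraries, 535, 343 and 402 FPKM in Panc02 libraries and 563, 455 and 448 FPKM in control libraries. H2-D1 (chromosome 17, 35262730 to 35267499), a classical heavy chain, had 66.5, 134 and 141 FPKM in KPC libraries, 82.3, 139 and 144 FPKM in Panc02 libraries and 91.8, 120.0 and 124 FPKM in control libraries. In every group library 1 had the highest B2m and the lowest H2-D1. The ratio of B2m to H2-D1 was 8.57, 3.07 and 2.51 in KPC libraries, 6.5, 2.46 and 2.79 in Panc02 libraries and 6.13, 3.80 and 3.62 in control libraries. Among the libraries numbered 2 and 3, the ratio was thus lower in all 4 tumour exosome libraries than in both control libraries. Over all libraries the groups overlapped, with library 1 of KPC and of Panc02 above every control library. The ratio was not tested. For both tumour groups the log2 fold change was -0.18 for B2m (SE 0.19, limma adjusted p = 0.978) and 0.03 for H2-D1 (SE 0.28, adjusted p = 0.999), and -0.26 and 0.20 in the libraries numbered 2 and 3 alone (adjusted p = 0.151 and 0.103).

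H2-K1, the other classical heavy chain, averaged 4.83 ± 1.17 FPKM in KPC, 5.69 ± 0.709 FPKM in Panc02 and 4.72 ± 0.864 FPKM in control libraries (SD, n = 3 each). H2-T23, the Qa-1 molecule that natural killer cells inspect, had 0.723, 1.06 and 0.769 FPKM in KPC libraries, 0.894, 0.590 and 1.18 FPKM in Panc02 libraries and 0.998, 1.41 and 1.1 FPKM in control libraries, with a log2 fold change for both of -0.22 (SE 0.12, limma adjusted p = 0.681). H2-T22 averaged 0.834, 0.919 and 1.16 FPKM in the KPC, Panc02 and control groups. H2-M3, which presents formylated peptides, averaged 4.85 ± 1.82 FPKM in KPC, 5.36 ± 2.45 FPKM in Panc02 and 4.25 ± 1.55 FPKM in control libraries (SD, n = 3 each). H2-Q1 was listed at 0 in KPC library 1 and in control libraries 1 and 2, had 1.91 and 1.88 FPKM in the other KPC libraries, 0.911, 2.09 and 1.80 FPKM in Panc02 libraries and 1.77 FPKM in control library 3. H2 heavy chains resemble each other, so reads could be divided between them.

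Peptide supply was mixed. Psmb10, an immunoproteasome subunit, had 2.35, 5.68 and 5.49 FPKM in KPC libraries, 2.71, 5.02 and 5.31 FPKM in Panc02 libraries and 2.82, 3.18 and 3.77 FPKM in control libraries. Libraries 2 and 3 of both tumour groups lay above all control libraries, and library 1 of both lay below all of them. Its log2 fold change for both was 0.30 (SE 0.26, limma adjusted p = 0.916; 0.26 with the block). In the 6 libraries numbered 2 and 3 it rose by 0.51 on the log2 scale for both (adjusted p = 0.0225) and by 0.56 for KPC (adjusted p = 0.0484). Psmb9, another such subunit, was below the filter at 0.466 to 0.804 FPKM. Tapbpl, a peptide editor of MHC class I, had 2.41, 3.47 and 3.10 FPKM in KPC libraries, 2.76, 3.31 and 3.03 FPKM in Panc02 libraries and 3.97, 3.33 and 4.58 FPKM in control libraries, with a log2 fold change for both of -0.30 (SE 0.12, limma adjusted p = 0.408). Tapbp (tapasin, which ties H2 chains to the transporter) averaged 27.2 ± 11.6 FPKM in KPC, 28.0 ± 7.83 FPKM in Panc02 and 24.2 ± 5.49 FPKM in control libraries, and its exons overlap Zbtb22 on the same strand. The transporter subunits averaged 1.21 ± 0.482, 1.16 ± 0.330 and 1.40 ± 0.414 FPKM for Tap1 and 7.76 ± 2.14, 7.61 ± 1.70 and 7.40 ± 0.913 FPKM for Tap2 in the KPC, Panc02 and control groups (SD, n = 3 each). Erap1, which trims peptides, averaged 1.74, 1.63 and 1.68 FPKM in these groups.

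MHC class II was represented by the 3 H2-DM genes, which help load peptides on class II molecules. H2-DMb1 averaged 4.92 ± 1.43 FPKM in KPC, 4.89 ± 2.23 FPKM in Panc02 and 5.33 ± 0.892 FPKM in control libraries, and H2-DMb2 and H2-DMa averaged 2.04 to 3.06 FPKM in every group (SD, n = 3 each). H2-Ke6, a dehydrogenase named for its place in the H2 region, averaged 7.41, 8.05 and 7.25 FPKM in the KPC, Panc02 and control groups.

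The Parp genes encode enzymes that add ADP-ribose to proteins, and only some of them are interferon-induced. Parp3, a DNA repair enzyme, had 7.97, 9.06 and 10.7 FPKM in KPC libraries, 8.20, 9.79 and 9.76 FPKM in Panc02 libraries and 10.8, 11.7 and 11.6 FPKM in control libraries. Parp8 had 4.55, 4.40 and 4.65 FPKM in KPC libraries, 4.35, 4.37 and 3.79 FPKM in Panc02 libraries and 4.65, 4.98 and 5.34 FPKM in control libraries. Both were below control in all tumour exosome libraries, by a narrow margin for Parp8, whose highest KPC and lowest control values are equal at this rounding. The log2 fold change for both tumour groups was -0.28 (SE 0.10) for Parp3 and -0.16 (SE 0.08) for Parp8, with limma adjusted p of 0.382 and 0.587. Exons of Parp3 overlap Rrp9 on the other strand, and whether reads were counted by strand is not given in the sources used here. Parp1, which detects DNA breaks, was the highest of the family at 22.4 ± 0.766 FPKM in KPC, 21.5 ± 1.28 FPKM in Panc02 and 22.8 ± 0.619 FPKM in control libraries (SD, n = 3 each). Parpbp, a protein that binds Parp1, averaged 10.4 ± 0.659 FPKM in KPC, 10.3 ± 0.743 FPKM in Panc02 and 10.4 ± 0.995 FPKM in control libraries (SD, n = 3 each). Parp9, which works with Dtx3l in interferon signalling, averaged 2.82, 2.97 and 3.21 FPKM in the KPC, Panc02 and control groups.

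Among tested genes with a promoter window, log2 fold changes lay somewhat lower where the ISRE core or the GAS motif was present. Of the 21 tested genes with an ISRE match, 17 were below 0 in each comparison with control. Their medians were -0.18 for KPC, -0.17 for Panc02 and -0.20 for both. Of the 38 without an ISRE match, 27, 22 and 23 were below 0, with medians of -0.07, -0.03 and -0.04. The GAS motif gave a like split. Of the 16 tested genes with a GAS match, 14, 13 and 14 were below 0, with medians of -0.15, -0.14 and -0.16. Of the 43 without one, 30, 26 and 26 were below 0, with medians of -0.06, -0.03 and -0.04. No test was run on either split, and no like split was made over all genes. The genes with an ISRE match include neighbours in a cluster (Ifi203, Ifi207 and Ifi211, and Ifit3 and Ifit3b). They also include Ifitm2, whose values depend on read assignment. Not every gene with an ISRE match read lower. Isg15, with 3 overlapping matches, was higher in 5 of 6 pairs of libraries. B2m, with 1 match, was among the genes below 0, but its groups overlapped. Of the genes called with the block, Ifit2 and Ifitm6 had a GAS match but no ISRE match in their windows. No window was found for Ifi27l2a.

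**Figure D4:**
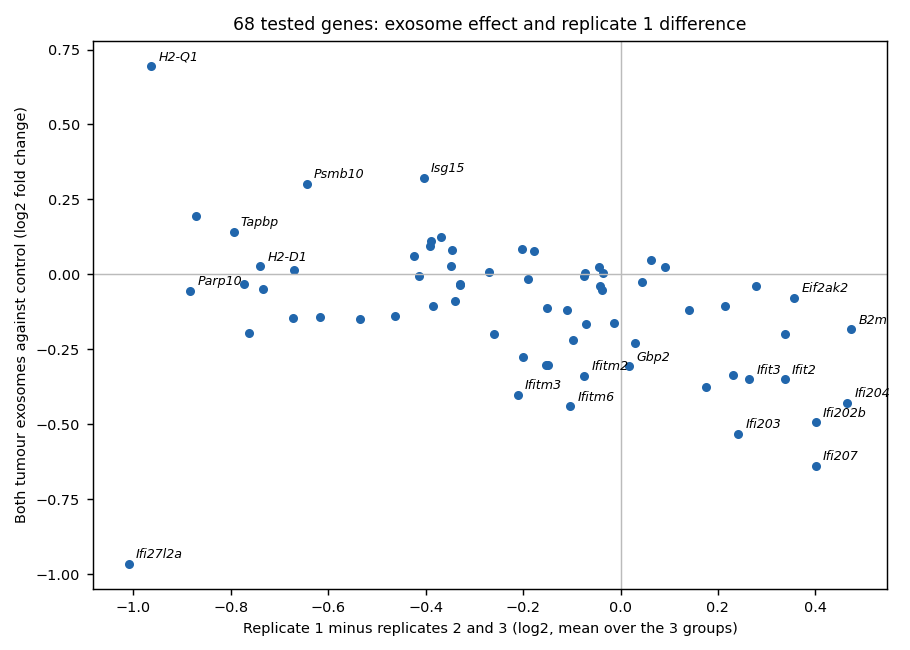
For each of the 68 tested genes, the difference of the libraries numbered 1 from those numbered 2 and 3 (x axis, log2, mean over the 3 groups) against the log2 fold change of both tumour groups over control (y axis). Replicate differences run from -1.01 (Ifi27l2a) to 0.47 (B2m), and fold changes of Ifi27l2a, H2-Q1, Ifi207 and Ifi203 lie farther than 0.5 from 0.

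Replicate number went with differences of its own. On the log2 scale the libraries numbered 1 differed from the others by a median of -0.17 over the 68 genes, with 72.1% below 0, and by -0.16 over all tested genes, with 67.9% below 0. Ifi27l2a (-1.01), H2-Q1 (-0.96), H2-D1 (-0.74) and Psmb10 (-0.64) were lower in libraries numbered 1, and B2m (0.47), Ifi204 (0.47), Ifi202b (0.40) and Ifi207 (0.40) were higher. In libraries numbered 1 the mitochondrial share was also higher, and its part in these differences was not tested.

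KPC and Panc02 exosomes were compared directly as well. No gene of the 68 passed with or without the block, and Ifitm2 and Parp6 were apart and higher with Panc02, 2 of 68 genes (2.94%) against 1.36% of all genes. The Ifitm2 part depends on read assignment. Summed with Gm45717, its KPC and Panc02 libraries overlapped and its log2 fold change was -0.165. Parp8 was apart and lower with Panc02, 1 of 68 (1.47%) against 1.26%. Parp6 had 1.99, 1.97 and 1.98 FPKM in Panc02 libraries and 1.65, 1.83 and 1.67 FPKM in KPC libraries. All 3 pairs of equal number were lower with Panc02 for 5 of 68 genes and higher for 8, against 9.78% and 10.6% of all genes. The median log2 fold change of the 68 was 0.01, with 32 below 0. The median turned to -0.03 in the 6 libraries numbered 2 and 3, with 43 of 66 below 0, against -0.01 and 53.4% over all genes.

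Outside the symbol rule, 94 further genes of the pathway were listed, of which 68 were measured and 59 tested. They comprised sensors upstream of interferon, feedback inhibitors, other interferon-induced genes and other parts of antigen presentation, and no interferon ligand was analysed here. None passed in any contrast without the block, where 4, 4, 5 and 0 had an unadjusted p under 0.05 for KPC, Panc02 and both against control and for Panc02 against KPC, beside 6.54%, 9.60%, 10.2% and 0.829% of all genes. With the block 0 of 59 passed for KPC (1.68% of all genes), 3 for Panc02 (2 lower and 1 higher, 4.24%) and 1, which was lower, for both (4.55%). These shares are near or below those of all genes, so the counts are no result about the list. The medians of the 59 were -0.02, -0.01 and -0.01 for KPC, Panc02 and both against control.

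Lgals9 (galectin-9, a sugar-binding protein that restrains T cells) had 6.76, 8.49 and 6.81 FPKM in KPC libraries, 7.27, 6.81 and 7.40 FPKM in Panc02 libraries and 10.2, 11.4 and 9.84 FPKM in control libraries. All 6 tumour exosome libraries lay below control. Its log2 fold change for both was -0.48 (SE 0.10, limma adjusted p = 0.0622; 0.019 with the block), and it also passed with the block for Panc02 at -0.49 (adjusted p = 0.0325). In the libraries numbered 2 and 3 alone it was -0.47 for both (adjusted p = 0.0452). Myd88, the adaptor of Toll-like receptors, fell with Panc02 exosomes with the block at -0.38 (limma adjusted p = 0.0412), with 5.36, 6.93 and 7.37 FPKM in Panc02 libraries and 6.99, 9.64 and 9.94 FPKM in control libraries. Irgm1, an interferon-induced GTPase of autophagy, rose with Panc02 exosomes in the same model at 0.41 (limma adjusted p = 0.0472), with 2.98, 3.78 and 3.75 FPKM in Panc02 libraries and 2.01, 2.67 and 2.48 FPKM in control libraries. Ly6a (Sca-1, an interferon-induced surface protein) had 7.25, 14.8 and 12.9 FPKM in KPC libraries, 10.5, 6.86 and 9.64 FPKM in Panc02 libraries and 11.7, 26.4 and 35.8 FPKM in control libraries. For both tumour groups its log2 fold change was -1.09 (SE 0.34, limma adjusted p = 0.256; 0.0725 with the block), and it passed in the libraries numbered 2 and 3 alone at -1.45 (adjusted p = 0.00594). Pias1, an inhibitor of STAT signalling, had 5.90, 5.84 and 5.35 FPKM in KPC libraries, 5.12, 5.56 and 5.00 FPKM in Panc02 libraries and 6.75, 6.87 and 6.28 FPKM in control libraries, with a log2 fold change for both of -0.24 (SE 0.08, limma adjusted p = 0.256).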

How the data were processed

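RNA of 9 stellate cell libraries was prepared with a TruSeq kit from Trizol extracts, per the labels' protocols. The submitters' processing notes name cutadapt, HISAT2 2.0.4, StringTie 1.2.3 and GRCm38. The handling of strand was not stated. The authors deposited FPKM values, which hold no counts, so no interval for counting error is given.

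Values were converted to log2(FPKM + 1) and fitted with limma 3.58.1 (R 4.3.3, variance trend) over the 10368 genes that reached 1 FPKM in 3 or more libraries. Each group had a mean, and 6 residual degrees of freedom were joined by 2.38 prior ones. P-values were two-sided and Benjamini-Hochberg adjusted over all tested genes. Fold changes of genes near or below 1 FPKM are understated on this scale. The fit without the block was tested on simulated data for KPC against control. That simulation held no replicate effect, and the fit with the block was not tested in this way.

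Libraries carry the numbers 1 to 3 in every group. After removal of group means, libraries of equal number correlated at 0.243 to 0.81 in all 9 pairs, above the limit of 0.1 for pairing, so a fit with replicate number as a block (4 residual and 3.51 prior degrees of freedom) stands beside each result it changes. The labels state no pairing. Libraries numbered 2 and 3 also correlated across numbers, at 0.299 to 0.613, so passing the limit does not show that libraries were paired. A fit on the 6 libraries numbered 2 and 3 had 3 residual and 4.08 prior degrees of freedom.

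The members, lists and naming rule were chosen with earlier results of these data known. Named are members that passed with or without the block, 32 fixed genes (27 measured), the 3 highest and the 2 with the lowest p of each role, and outside the symbol rule those that passed and the 3 with the lowest p. Other genes named were chosen after their values were seen. The values of 1 tested member are not reported here. All 78 identifiers were in GENCODE for GRCm38, 71 with the same coordinates. Exons of 35 overlapped another gene, 25 on the other and 11 on the same strand.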

Additional observations from a re-analysis of the deposited data

How the results depend on the processing

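The number of the 68 genes that passed depended on the treatment of the replicate number. Without a replicate term 0 passed in the 4 contrasts, also with a pseudocount of 0.1 or 0.5, no filter, both rescalings, no variance trend and, for pairs of groups, only the groups compared. With the replicate block 2, 4 and 5 passed for KPC, Panc02 and both tumour groups against control and 0 for Panc02 against KPC. In the 6 libraries numbered 2 and 3 the counts were 2, 2, 7 and 1. When each library was left out in turn, 0 to 1 passed for both tumour groups, the 1 being Ifi203 without KPC replicate 1, and 0 in the other contrasts.

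Over all tested genes the calls for KPC, Panc02 and both moved to 6, 46 and 54 with library totals made equal, to 174, 440 and 472 with the replicate block, and to 199, 488 and 758 in the 6 libraries numbered 2 and 3, where Panc02 against KPC had 8. With only the groups compared KPC had 0 calls. Leaving out 1 library gave 0 to 34 for KPC, with 0 without any 1 control library, 23 to 126 for Panc02, 25 to 161 for both and 0 to 1 for Panc02 against KPC.

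Among the genes whose fold changes are given, signs turned for 3, none of them called over the 9 libraries without the block. Ifitm2 for Panc02 against control was -0.201 in the 6 libraries numbered 2 and 3, -0.296 when summed with Gm45717 and -0.26 to 0.173 with 1 library left out, and for Panc02 against KPC it was -0.165 when summed. H2-D1 for KPC was 0.174 in the 6 libraries, and with 1 library left out it ran between -0.227 and 0.309 for KPC, between -0.049 and 0.352 for Panc02 and between -0.106 and 0.201 for both. Myd88 for KPC ran between -0.281 and 0.059. The cause was not tested. For both tumour groups the adjusted p over all alternatives ran from 0.00451 to 0.42 for Ifi207, 0.0117 to 0.928 for Ifi27l2a, 0.0271 to 0.681 for Ifitm3, 0.0161 to 0.804 for Ifit2, 0.0456 to 0.443 for Ifitm6 and 0.0324 to 0.574 for Ifi203, and each kept its sign. With FPKM alone, depth is unknown, and low genes such as Ifi207 and Ifitm6 rest on few reads of unknown number.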
